A study of Rattus norvegicus with 3 samples.

Results

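The mRNAs described here are 10 genes of chromosome segregation: the mitotic kinase pair Cdk1 and Ccnb1, the chromosome proteins Mki67, Top2a, Smc2 and Smc4, the kinetochore proteins Cenpe and Cenpf, and the spindle proteins Tpx2 and Aspm. They were taken by gene symbol from the deposited gene table, where 10 of 10 symbols matched 1 gene each among 29684 genes. The RNA was that of extracellular vesicles, small particles with a membrane that cells shed, collected from the supernatant of cultured ADSC, that is, adipose-derived mesenchymal stem cells. The cells, multipotent stroma of fat tissue, were taken from the inguinal region of wild type rats. There was 1 group, ADSC_EV, with replicates 1 to 3 made from 3 batches of vesicles, and no control group or RNA of the source cells was analysed here. It is not stated whether each batch had animals or cultures of its own, so the spread between libraries, and any p-value from it, may be technical. The question was whether mRNAs that mark dividing cells stood above the level of the genes for olfactory and vomeronasal receptors. These receptors sense odours and pheromones in the nose, and their genes serve as a level to compare with. The comparison is between genes within the same libraries, in FPKM, which is fragments scaled by gene length and by the depth of the library.

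Cells that divide make these mRNAs mainly in the G2 phase and in mitosis. Cyclin B1 (Ccnb1) and its kinase Cdk1 drive entry into mitosis. Condensin, built on the ATPases Smc2 and Smc4, works with topoisomerase II alpha (Top2a) to compact and untangle chromosomes. The spindle then captures these chromosomes through kinetochores. Mki67 encodes the Ki-67 protein, which coats mitotic chromosomes and is the usual histological marker of dividing cells. Extracellular vesicles can carry mRNAs of the cells that released them.

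The deposited counts summed to 5219920, 6786182 and 6618461 in replicates 1, 2 and 3. The 10 mRNAs together took 3637, 4720 and 4300 of these counts, which is 0.0697%, 0.0696% and 0.0650%. The 1503 receptor genes had a median of 2.61 ± 0.311 FPKM (SD of the library medians, n = 3), or 43, 39 and 46 counts in replicates 1, 2 and 3. The 22745 nuclear protein-coding genes, receptors included, had a median of 4.83 ± 0.380 FPKM. Levels of markers of the labelled cell type and of blood cells overlapped. The 10 surface markers of mesenchymal stem cells had a list median of 5.98 ± 0.330 FPKM and means from 1.65 to 17.4. The 9 of 10 haematopoietic markers that matched had a list median of 5.13 ± 0.739 FPKM and means from 2.43 to 6.97. None of these markers was at 0, but no gene of the table had 0 counts over all libraries, so this was fixed in advance. The highest mesenchymal markers were Itgb1, an integrin subunit, at 17.4 ± 4.02 FPKM and the adhesion molecule Mcam at 8.02 ± 0.128. The highest haematopoietic marker was Cd3e, of the T cell receptor complex, at 6.97 ± 1.33 FPKM.

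The mRNAs lay at 2 levels. Tpx2, Mki67, Cenpe, Cdk1, Top2a and Cenpf had means of 8.33 to 13.8 FPKM, while Ccnb1, Smc4, Aspm and Smc2 had means of 3.54 to 4.52. In single libraries the first 6 lay between 7.70 and 15.4 FPKM and the other 4 between 3.42 and 5.87, so the ranges did not overlap. This grouping was made from the values and is a description. Each of the 10 was above the receptor median in 3 of 3 libraries, as were 63.2% of all genes, and 6 of 10 were above the median coding gene in 3 of 3, as were 32.1% of all genes. The median over the 10 genes was 7.98 ± 0.291 FPKM (SD of the library medians, n = 3). In RNA from many vesicles, fewer vesicles with an mRNA and fewer copies per vesicle cannot be told apart.

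**Figure D1:**
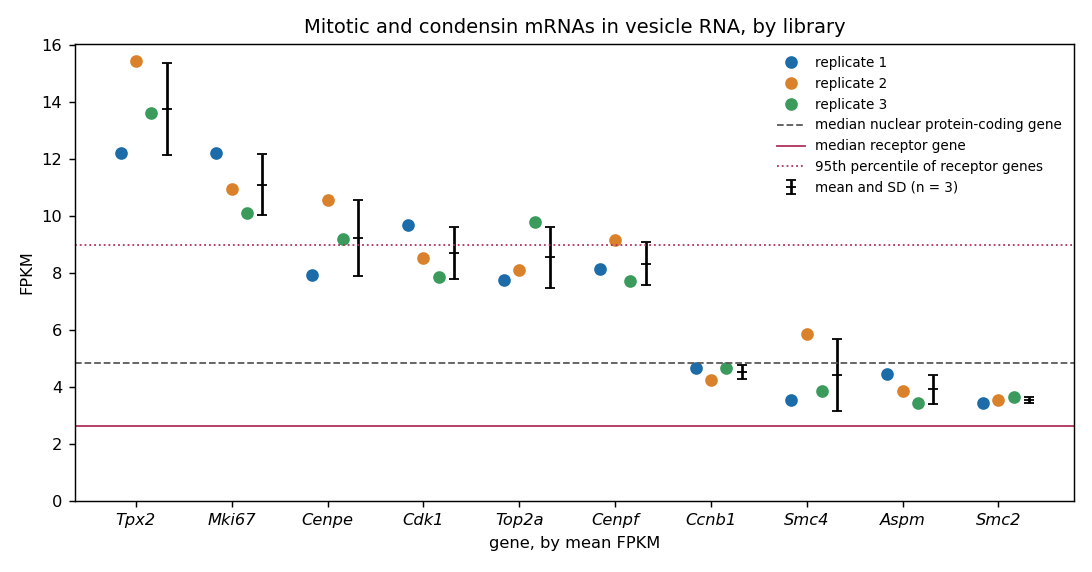
FPKM of each mRNA (points, 1 per library, with the mean and SD beside them), ordered by mean, with the mean over libraries of the median coding gene (dashed), the median receptor gene (solid) and the 95th percentile of receptor genes (dotted). Tpx2 and Mki67 lie at or above 10.1 FPKM in every library, and Ccnb1, Smc4, Aspm and Smc2 lie at or below 5.87.

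The kinase had a higher FPKM than its cyclin. Cdk1 (ENSRNOG00000000632, chromosome 20, 19266248 to 19281408 on mRatBN7.2, plus strand), the kinase of mitotic entry, had 9.68, 8.53 and 7.87 FPKM in replicates 1, 2 and 3. Ccnb1 (ENSRNOG00000058539, chromosome 2, 31912193 to 31921172, minus strand), its activating cyclin, had 4.67, 4.23 and 4.65 FPKM. Cdk1 exceeded Ccnb1 in every library, by a log2(FPKM + 1) difference of 0.81 ± 0.14 (SD, n = 3; exact two-sided sign-flip permutation test, p = 0.25, the smallest that 3 libraries allow). Of 5 pairs of mRNAs with related roles compared in this way, the adjusted p was 0.312 for 4 and 0.500 for Cenpe and Cenpf. By counts the order was reversed in every library, with 105, 112 and 103 for Cdk1 and 123, 134 and 148 for Ccnb1. The higher FPKM of Cdk1 thus rests on scaling by implied length, which is 3301 bases for Ccnb1. Cdk1 is the shortest of the 10 by implied length, 1363 bases, and rests on 103 to 112 counts per library. Its 95% interval for counting error in replicate 3 was 84.1 to 125 counts (exact Poisson), or 6.42 to 9.54 FPKM, which lies above the receptor median of 2.58 in that library.

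Among chromosome proteins the marker of proliferation was highest and the condensin core lowest. Mki67 (ENSRNOG00000028137, chromosome 1, 190496319 to 190522762, minus strand) had 12.2, 11.0 and 10.1 FPKM in replicates 1, 2 and 3. Top2a (ENSRNOG00000053047, chromosome 10, 83945735 to 83976874, minus strand), the enzyme that untangles DNA, had 7.77, 8.10 and 9.77 FPKM. Mki67 exceeded Top2a in 3 of 3 libraries, by a log2(FPKM + 1) difference of 0.34 ± 0.28. Smc2 (ENSRNOG00000022325, chromosome 5, 66807011 to 66853242, plus strand), a condensin ATPase, had 3.45, 3.53 and 3.63 FPKM. Its partner Smc4 (ENSRNOG00000010274, chromosome 2, 153240283 to 153271571, plus strand) had 3.53, 5.87 and 3.85 FPKM. The log2(FPKM + 1) difference of Smc4 over Smc2 was 0.23 ± 0.32, positive in 3 of 3 libraries but smaller than its SD. Smc2 had the smallest coefficient of variation over libraries of the 10 mRNAs, 2.61%. Counting alone gives 7.71%, so the smaller value does not show a steadier mRNA. Smc4 had the largest coefficient of variation, 28.7% against 6.36% from counting. Its count in replicate 2, 365 (95% exact Poisson interval 5.28 to 6.50 FPKM), lay outside the intervals of replicate 1 (3.03 to 4.08) and replicate 3 (3.38 to 4.37). Without replicate 2 both condensin ATPases lay between 3.45 and 3.85 FPKM.

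The kinetochore genes had similar levels. Cenpe (ENSRNOG00000009339, chromosome 2, 223636998 to 223695669, plus strand), a kinesin motor that moves chromosomes to the spindle equator, had 7.92, 10.6 and 9.20 FPKM. Cenpf (ENSRNOG00000003388, chromosome 13, 101184127 to 101229669, minus strand), a large coiled-coil protein of the outer kinetochore, had 8.14, 9.16 and 7.70 FPKM. They differed by 0.13 ± 0.14 on the log2(FPKM + 1) scale, with Cenpe higher in 2 of 3 libraries (exact two-sided sign-flip permutation test, p = 0.5). Both were highest in replicate 2.

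On the log2(FPKM + 1) scale the spindle genes differed more than any other of the 5 pairs. Tpx2 (ENSRNOG00000008165, chromosome 3, 141318455 to 141360468, plus strand), which nucleates spindle microtubules and activates Aurora A kinase, had 12.2, 15.4 and 13.6 FPKM and had the highest mean of the 10. Aspm (ENSRNOG00000012318, chromosome 13, 51074849 to 51123755, plus strand), a spindle pole protein, had 4.46, 3.86 and 3.42 FPKM. In each library Tpx2 exceeded Aspm, with a mean log2(FPKM + 1) difference of 1.59 ± 0.27 (SD, n = 3; exact two-sided sign-flip permutation test, p = 0.25, the smallest possible). By counts they were close, with 277, 421 and 373 for Tpx2 and 346, 360 and 321 for Aspm, which was higher in replicate 1. The difference in FPKM thus rests largely on scaling by implied lengths of 2843 bases for Tpx2 and 9735 for Aspm. The 3 nuclear coding genes whose levels over the 3 libraries were nearest to those of Tpx2 were Mmp2, a matrix metalloprotease, Spaca6 and Ccdc136, at Euclidean distances of 0.07, 0.08 and 0.08 in log2(FPKM + 1). They had 13.7 ± 1.93, 13.6 ± 2.11 and 14.0 ± 1.36 FPKM, against 13.8 ± 1.61 for Tpx2 (SD, n = 3 each).

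Along the order of mean levels, from Tpx2 through Mki67, Cenpe, Cdk1, Top2a, Cenpf, Ccnb1, Smc4 and Aspm to Smc2, most neighbours were not separated. Of 9 neighbouring pairs, 2 kept their order in 3 of 3 libraries: Mki67 over Cenpe, by 0.25 ± 0.28 on the log2(FPKM + 1) scale, and Cenpf over Ccnb1, by 0.76 ± 0.18 (SD, n = 3). The difference of Mki67 over Cenpe was smaller than its SD, and that of Cenpf over Ccnb1 was larger. The exact two-sided sign-flip permutation test gave p = 0.25 for both, the smallest possible, and an adjusted p of 0.964 over the 9 pairs. The order was taken from the same 3 libraries, so these p-values are a description and do not test it. Mki67 and Tpx2 both had 12.2 FPKM in replicate 1, and Tpx2 had the highest value in replicates 2 and 3. The libraries gave no common direction, with 4 mRNAs highest in replicate 1, 4 in replicate 2 and 2 in replicate 3.

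The promoters of these genes share motifs known for genes of G2 and mitosis. The 10 were chosen as genes of that kind, so matches are not independent of the choice. In human and mouse cells, many genes of G2 and mitosis are controlled through the cell cycle homology region (CHR) and through CCAAT boxes, which the factor NF-Y binds. The CHR core was searched as TTTGAA and in its variant form as TTTAAA. The window was the 250 bases before the RefSeq start (GRCr8, a later build than that of the gene table), both strands were searched for both CHR cores and for CCAAT, and none of these motifs contains another. Of the 10 genes 9 had a promoter entry, and the missing entry was Tpx2. A CHR core was found in 9 of 9 windows and CCAAT in 9 of 9. Of 33469 RefSeq promoter windows of the same length 25.4% held a CHR core, 34.0% held CCAAT and 9.04% held both. A match is a description of letters and not a bound site. The windows of 2 mRNAs of the higher level (Cdk1, chr20:19265043-19265292, plus strand; Top2a, chr10:84473094-84473343, minus strand) and 2 of the lower level (Ccnb1, chr2:33655226-33655475, minus strand; Smc2, chr5:71602155-71602404, plus strand) are shown 5′ to 3′ because both levels carry these motifs. Capitals mark the CHR cores and CCAAT on either strand.
Cdk1: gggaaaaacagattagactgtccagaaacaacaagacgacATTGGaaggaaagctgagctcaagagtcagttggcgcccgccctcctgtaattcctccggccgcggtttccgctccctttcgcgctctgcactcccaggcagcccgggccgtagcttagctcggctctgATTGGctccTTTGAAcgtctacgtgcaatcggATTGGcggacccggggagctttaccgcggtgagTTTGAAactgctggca
Top2a: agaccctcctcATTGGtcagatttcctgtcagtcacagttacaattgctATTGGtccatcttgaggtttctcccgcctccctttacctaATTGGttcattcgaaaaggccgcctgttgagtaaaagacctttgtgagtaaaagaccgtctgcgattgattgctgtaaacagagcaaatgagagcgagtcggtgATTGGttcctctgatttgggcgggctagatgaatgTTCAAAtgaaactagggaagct
Ccnb1: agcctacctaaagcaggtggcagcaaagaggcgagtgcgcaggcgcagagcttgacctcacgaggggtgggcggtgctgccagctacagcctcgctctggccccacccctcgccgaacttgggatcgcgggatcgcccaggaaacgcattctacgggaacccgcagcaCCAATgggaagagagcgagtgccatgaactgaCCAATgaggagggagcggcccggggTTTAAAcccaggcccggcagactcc
Smc2: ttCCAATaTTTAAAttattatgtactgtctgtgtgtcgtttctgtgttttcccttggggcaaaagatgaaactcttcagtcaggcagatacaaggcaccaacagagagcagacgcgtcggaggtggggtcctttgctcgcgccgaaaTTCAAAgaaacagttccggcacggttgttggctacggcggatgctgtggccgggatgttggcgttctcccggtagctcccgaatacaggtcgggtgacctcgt
The Cdk1 window has 2 CHR cores and 3 CCAAT matches, and the Top2a window has 1 CHR core and 4 CCAAT matches. Ccnb1 has 1 CHR core in its variant form and 2 CCAAT matches, and Smc2 has both forms of the CHR core and 1 CCAAT match. The mRNAs of Cdk1 and Smc2, whose promoter windows hold both motifs, had 8.69 ± 0.915 and 3.54 ± 0.0922 FPKM (SD, n = 3).

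None of the 10 mRNAs was called above the receptor genes at a threshold of 2. The rule was limma's treat test of whether the log2(FPKM + 1) difference from the receptor median exceeded 2 (5.16-fold in FPKM) with Benjamini-Hochberg adjustment over the whole table and an adjusted p under 0.05. It called 0 of 10, against 1.85% of all genes (548 of 29684), 1.61% of nuclear coding genes and 0.133% of receptor genes, so at this background a count of 0 is no result about these genes. At an unadjusted p under 0.05 it called 0 of 10 as well, against 3.88% of all genes (1153). On the counts, edgeR called 0 of 10 after adjustment, against 4.08% of all genes, 4.1% of nuclear coding genes and 0.399% of receptor genes. DESeq2 called 0 of 10, against 4.53%, 4.51% and 0.466% of the same classes. At an unadjusted p under 0.05 each of these count tests passed 1 of 10, Tpx2, against 6.03% of all genes in edgeR and 5.76% in DESeq2. The edgeR p at this threshold is one-sided and the DESeq2 p two-sided, so the same cutoff is not equally strict in both. Tpx2 was closest to the threshold, with a difference of 2.03 (SE 0.16, 95% interval 1.62 to 2.43; limma, unadjusted p = 0.434). In FPKM, Tpx2 was 5.36 ± 1.25 times and Mki67 4.27 ± 0.407 times the receptor median (SD, n = 3). The interval of Mki67, 1.42 to 2.06, also reached past 2, while those of the other 8 ended below 2.

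With a threshold of 1 the same limma test called Tpx2 (adjusted p = 0.0129) and Mki67 (1.74, SE 0.12, adjusted p = 0.0170), 2 of 10, against 9.12% of all genes, 9.21% of nuclear coding genes and 2.13% of receptor genes. Just outside, with intervals that overlap that of Mki67, were Cdk1, at a difference of 1.42 (adjusted p = 0.0902), and Cenpe, at 1.5 (adjusted p = 0.123). The same count, 2 of 10, was above the 95th percentile of receptor genes in every library, which lay at 10.1, 7.79 and 9.11 FPKM, against 8.2% of all genes, 8.16% of nuclear coding genes and 2.06% of receptor genes. Without replicate 1 the count was 4 of 10, against 11.3% of all genes. Cenpe and Top2a were above that percentile in 2 of 3 libraries and Cdk1 and Cenpf in 1 of 3. With no threshold limma called 8 of 10 above the receptor median, but also 53.6% of all genes, 59.3% of nuclear coding genes and 25.5% of receptor genes. The remaining genes were Smc4 at 0.56 (95% interval 0.03 to 1.09, adjusted p = 0.0656) and Smc2 at 0.33 (-0.04 to 0.70, adjusted p = 0.10). On the counts, edgeR with no threshold called 10 of 10, Smc4 and Smc2 included, against 58.3% of all genes. Over the 10 genes the median difference from the receptor median was 1.38, against 0.61 over all genes and 0.68 over nuclear coding genes. The median over receptor genes was -0.04.

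**Figure D2:**
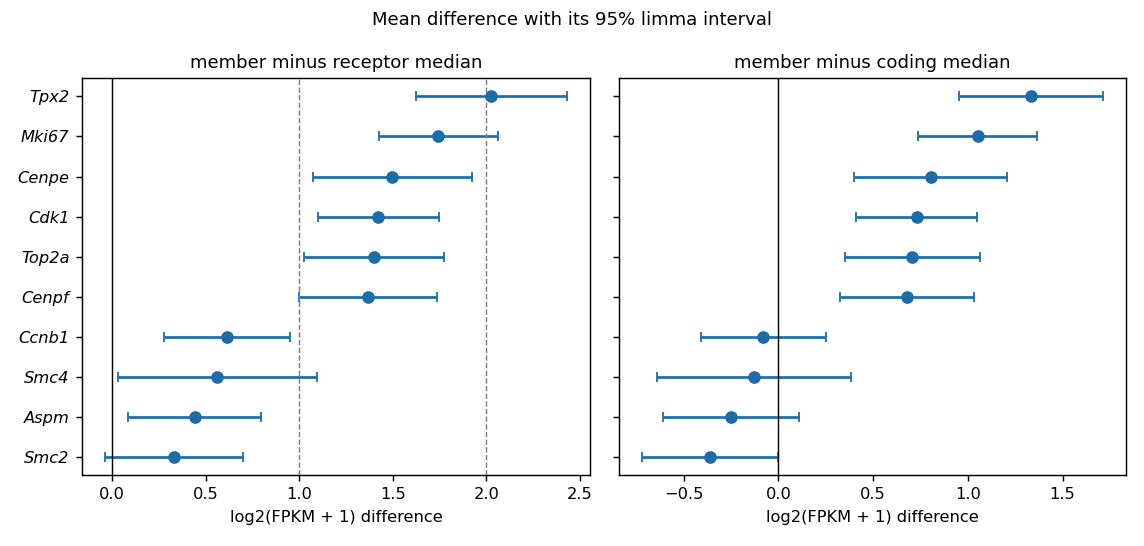
Mean log2(FPKM + 1) difference of each mRNA from the median receptor gene (left) and from the median nuclear protein-coding gene (right), with 95% intervals from limma over 3 libraries. Dashed lines mark the thresholds 1 and 2; Tpx2 reaches 2.03 on the left, and Ccnb1, Smc4, Aspm and Smc2 lie below 0 on the right.

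Coding genes as a whole lay above the receptor genes, so the mRNAs were also set against the median nuclear coding gene. With no threshold, limma called 6 of 10 above it, against 19.9% of all genes, 21.3% of nuclear coding genes and 6.25% of receptor genes. These were Tpx2, at a log2(FPKM + 1) difference of 1.34 (SE 0.15, adjusted p = 0.00625) and 2.88 ± 0.561 times the coding median in FPKM, Mki67 at 1.05 (SE 0.12, adjusted p = 0.00731) and 2.30 ± 0.186 times, and Cenpe, Cdk1, Top2a and Cenpf at 0.68 to 0.80 (adjusted p at most 0.0190). The FPKM of these last 4 was 1.74 to 1.93 times the coding median. Ccnb1, Smc4, Aspm and Smc2 had differences of -0.08, -0.13, -0.25 and -0.36, and none passed limma's test (smallest adjusted p = 0.0931, for Smc2). On the counts, edgeR called Smc2 below the coding median (log2 difference -0.44, adjusted p = 0.0443), as it did 15.9% of all genes. The interval for Ccnb1 was -0.41 to 0.25. With 1 library left out, the count was 2 of 10 without replicate 2 (Mki67 and Tpx2), 3 of 10 without replicate 3 (with Cdk1 added) and 6 of 10 without replicate 1. The corresponding shares of all genes were 11.1%, 10.9% and 14.8%.

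**Figure D3:**
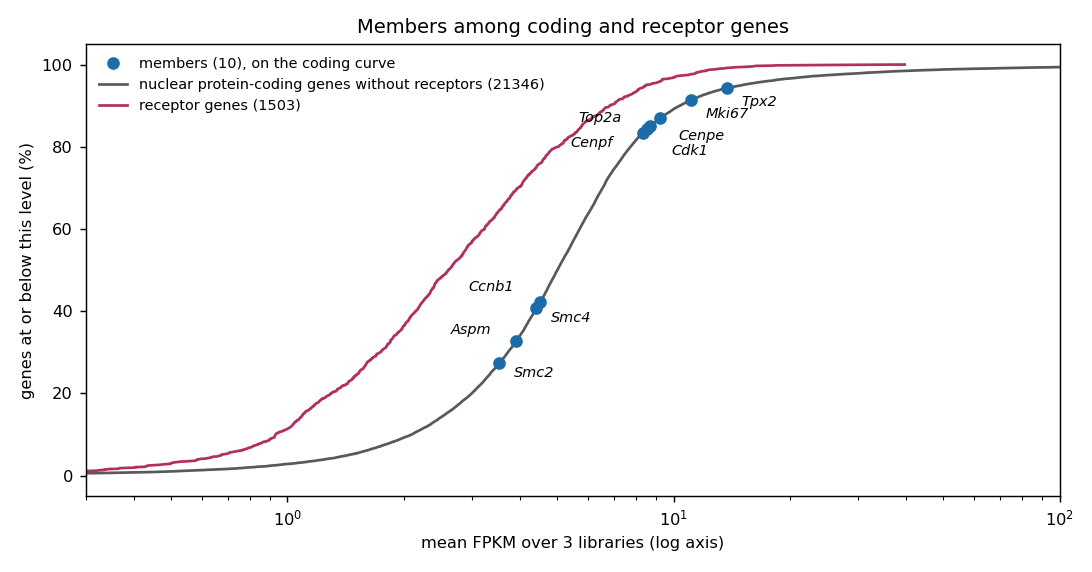
Cumulative share of genes (percent) by mean FPKM over 3 libraries on a log axis, shown from 0.3 to 100, for nuclear protein-coding genes without receptors and for receptor genes, with the 10 mRNAs placed on the coding curve. Tpx2 and Mki67 sit near the top of the curve and the condensin mRNA Smc2, at 3.54 FPKM, below its midpoint.

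In rank among nuclear coding genes, Tpx2 lay at percentiles 92.9, 95 and 93.9 in replicates 1, 2 and 3, and Mki67 at 93.0, 91.4 and 88.8. Cdk1 lay at 87.1, 85.8 and 80.1. Smc2 lay at 26.5, 35.6 and 33.3 and Smc4 at 27.5, 67.8 and 36.4. Among receptor genes even Smc2 was above the median, at percentiles 58.2, 70.1 and 66.7, while Tpx2 lay at 97.5, 99.6 and 98.7. A small share of receptor genes thus had FPKM as high as the highest of the 10.

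A long gene collects more counts at the same FPKM, so its level has less counting error. The lengths that counts and FPKM imply were 9892 bases for Mki67, 10080 for Cenpf, 9735 for Aspm and 7609 for Cenpe, against a median of 1678 for receptor genes. Mki67 had 964 to 1041 counts per library, while Cdk1, at 8.69 FPKM against 11.1 for Mki67, had 103 to 112. Receptor genes reached higher FPKM among short genes: among those implied to be over 8000 bases the highest of 19 had 4.06 FPKM, and among those under 1000 bases the highest of 522 had 39.7. Among 919 nuclear coding genes without receptors over 8000 bases Mki67 lay at percentile 95.2, Cenpf at 89.6 and Aspm at 29.1, by mean FPKM. Between 4000 and 8000 bases Cenpe lay at percentile 92.1, Top2a at 90.0, Smc4 at 38.8 and Smc2 at 23.8 of 4275 genes. Tpx2 lay at 95.6 of 7620 genes between 2000 and 4000 bases, where Ccnb1 lay at 40.1, and Cdk1 at 81.3 of 4833 genes between 1000 and 2000. No receptor gene of the same length band had a mean above that of Tpx2 (0 of 457), Mki67 or Cenpf (0 of 19 each), while 13 of 322 exceeded Cdk1 and 52 of 183 exceeded Smc2. The median coding gene had 4.50 to 5.12 FPKM in every length band. Mki67 and Aspm, of like length, had 11.1 ± 1.06 and 3.91 ± 0.523 FPKM (SD, n = 3), and the part of length in the levels of the 10 mRNAs was not tested.

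**Figure D4:**
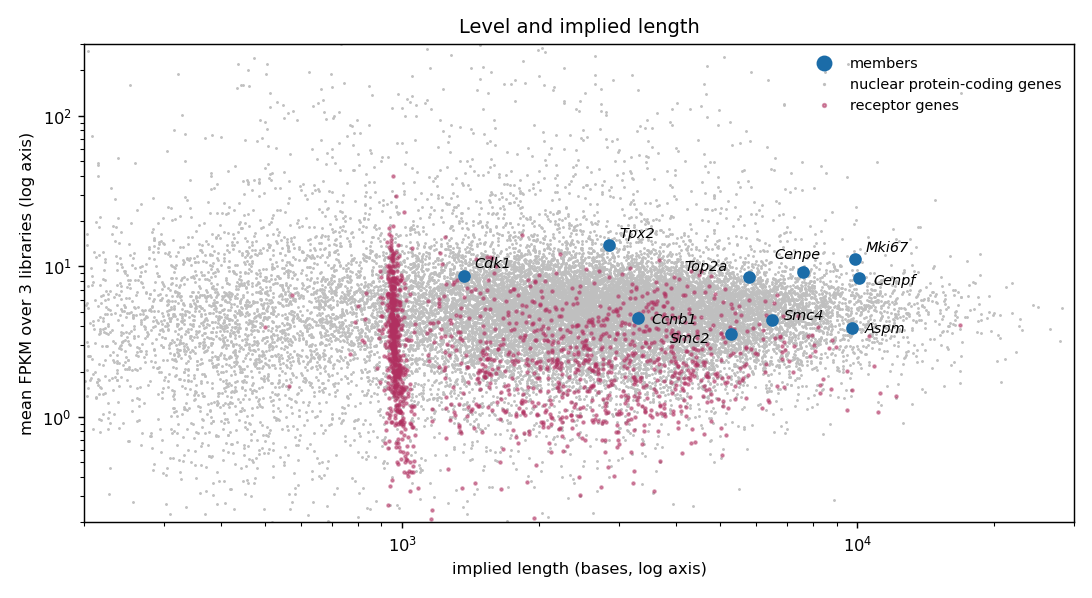
Mean FPKM over 3 libraries against the length that counts and FPKM imply, both on log axes, with genes outside 200 to 30000 bases or 0.2 to 300 FPKM not drawn. Members are the 10 mRNAs; Mki67 at 9892 bases had 11.1 FPKM, while receptor genes reached 39.7 FPKM under 1000 bases and 4.06 over 8000.

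Other genes of the cell cycle were taken from 10 lists. The medians of these lists ran from 3.73 to 6.75 FPKM, beside 7.98 for the 10 mRNAs and 4.83 for coding genes. By limma with no threshold, 6 of 26 kinetochore genes and 6 of 18 mitotic kinases and cyclins were called above the coding median. The same test called 4 of 21 spindle and 4 of 9 cytokinesis genes, 2 of 6 other condensin subunits and 3 of 14 cohesin genes. It also called 1 of 6 (SMC5/6), 4 of 15 entries (centrosome), 4 of 26 entries (DNA replication) and 2 of 18 (G1). The share of all genes was 19.9%, and 6 of the 10 mRNAs passed. The other subunits of condensin had a median of 5.73 ± 0.430 FPKM, with Ncapg2 at 7.94 ± 1.59 and Ncapd2 at 7.71 ± 1.0 (SD, n = 3), and 0 of 6 were called over 2 above the receptor median (limma, against 1.85% of all genes). Of these 6, Ncapg was lowest at 2.07 FPKM and the other 5 had means of 4.41 to 7.94. Cohesin, the ring that holds sister chromatids together, and its regulators had a median of 3.73 ± 0.331 FPKM, and 0 of 14 were called. Of its SMC subunits, Smc1a had 26.0, 50.2 and 44.6 FPKM in replicates 1, 2 and 3, a difference of 3.46 above the receptor median (SE 0.26, limma, adjusted p = 0.0600), and Smc3 had 10.7 ± 1.09. Smc1a did pass edgeR's test (adjusted p = 0.00012). In the list of SMC5/6 and other SMC proteins 0 of 6 were called, and Smc6, a DNA repair ATPase, led at 10.5 ± 3.21 FPKM before Nsmce4a at 5.56 ± 1.33.

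Partners of the mitotic mRNAs had a few high members. The limma rule of a difference over 2 above the receptor median called 1.85% of all genes and 1.61% of nuclear coding genes. At these shares, the counts of 0 or 1 called below are no result about the lists. Among mitotic kinases, cyclins and subunits of the anaphase-promoting complex 1 of 18 was called, Incenp, the scaffold of the chromosomal passenger complex, at 27.6, 40.2 and 32.5 FPKM (3.24 above the receptor median, SE 0.19, limma, adjusted p = 0.0375). The ubiquitin-conjugating enzyme Ube2c followed at 16.2 ± 5.85 FPKM. The kinetochore and spindle checkpoint list, with a median of 4.74 ± 0.447, had 0 of 26 called, with Zwint at 16.9 ± 2.09 and Mis12 at 12.9 ± 2.61 FPKM. The spindle motors and assembly factors had 0 of 21 called and a median of 5.11 ± 0.206, led by Numa1 at 9.33 ± 0.820 and Prc1 at 8.96 ± 1.23. The cytokinesis list held the highest FPKM of all these lists. Arhgap11a had 417, 819 and 698 FPKM, 7.43 above the receptor median (SE 0.34, limma, adjusted p = 0.00280), and Chmp4b, of the ESCRT machinery, 69.6 ± 24.1 FPKM (4.24, SE 0.26, adjusted p = 0.0156). These were the 2 of 9 called in that list. The 99th percentile of nuclear coding genes was 59.0 FPKM (mean over libraries). Whether reads of other loci enter the Arhgap11a value was not tested. Without replicate 3, the limma test at this threshold called 0 of all genes, Incenp, Arhgap11a and Chmp4b included. Arhgap11a and Chmp4b are also known outside mitosis, Chmp4b in the release of vesicles.

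In lists with a count of 0, some genes reached an unadjusted p under 0.05 in limma. These were 1 of 14 in the cohesin list, 1 of 26 in the kinetochore list and 1 of 18 in the G1 list. The other lists had 0, against 3.88% of all genes. On the counts, edgeR and DESeq2 each called 1 gene in each of those 3 lists and 0 in the other cell cycle lists with a limma count of 0. Each also called 1 of the 10 mesenchymal markers. Over all genes edgeR called 4.08% and DESeq2 4.53%, so counts of 1 are no result about these lists.

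Genes of the phases before mitosis had medians near the coding median. The limma rule of a difference over 2 called 1.85% of all genes, so the counts of 0 called below are no result about these lists. DNA replication genes had a median of 5.42 ± 0.180 FPKM with 0 of 25 symbols called, led by the helicase subunit Mcm2 at 10.8 ± 0.443 and the ribonucleotide reductase subunit Rrm2 at 10.5 ± 1.47. Cyclins of the G1 phase and cell cycle inhibitors had 4.72 ± 0.424 FPKM and 0 of 18 called. Ccnd1, the growth factor-induced cyclin D1, was highest at 19.0, 36.0 and 29.2 FPKM (2.97 above the receptor median, SE 0.24, limma, adjusted p = 0.200), and Ccnd2 had 10.7 ± 1.58. Centrosome genes had 5.66 ± 0.145 FPKM and 0 of 14 symbols called, with Tacc3 at 9.53 ± 0.518 and Haus6 at 9.18 ± 2.33. Smc1a, Arhgap11a, Chmp4b, Incenp and Ccnd1 were each lowest in replicate 1, which held for 5 of the 10 mitotic mRNAs. The share of all genes lowest in replicate 1 is not given here, so this is a description of the named genes only.

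**Figure D5:**
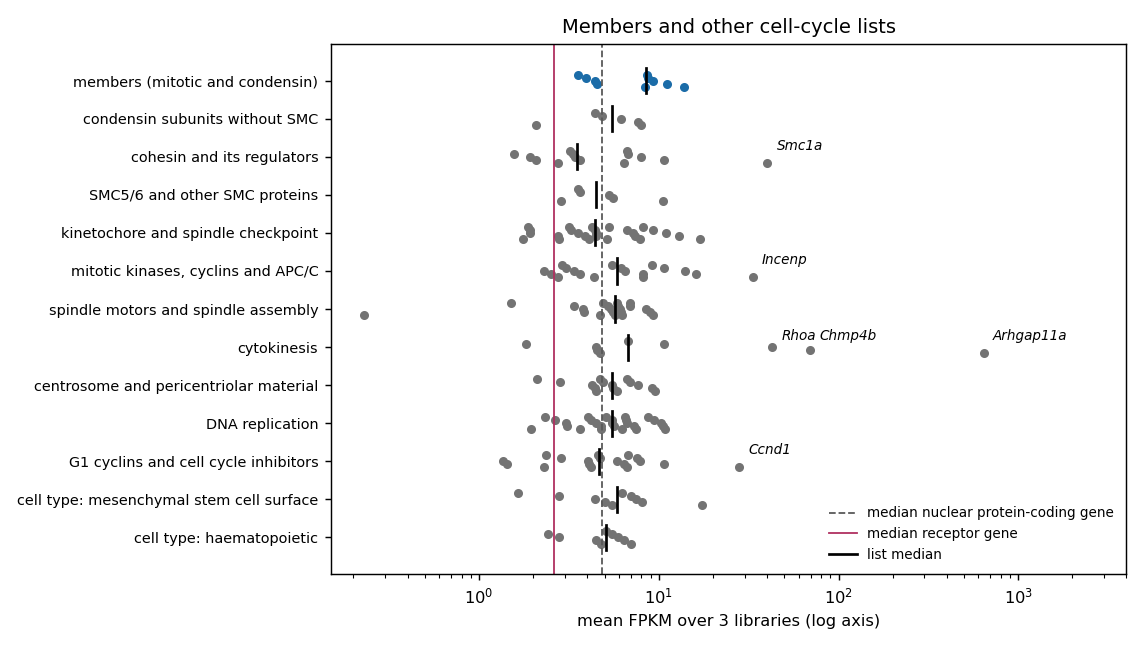
Mean FPKM over 3 libraries (log axis) of each gene in the 10 mitotic mRNAs (blue) and in the other lists (grey), with list medians as bars and genes above 20 FPKM named. The solid vertical line is the median receptor gene and the dashed line the median coding gene; Arhgap11a at 645.0 FPKM lies far above the 10 mRNAs, which lie between 3.54 and 13.8.

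Reads of other loci can enter these values, since the sources used here do not say how reads were counted or whether strand was used. On the opposite strand of Smc4 the table places Trim59, which had 79 counts over the 3 libraries, against 788 for Smc4. Small RNA genes inside Aspm and Tpx2 had 17 and 6 counts, against 1027 and 1071. RefSeq names pseudogenes of Cdk1, Mki67 and Tpx2 that match no symbol of the table, so reads shared with them are possible and were not tested.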

How the data were processed

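Vesicle RNA of 3 batches was sequenced paired-end with a stranded total RNA kit after ribosomal cDNA was cut, per the labels' protocols. cutadapt 1.9, FastQC and build mRatBN7.2 are named in the submitters' processing notes; aligner and counter: not given in the sources used here. The deposited table holds counts that the authors did not normalize and FPKM that the authors scaled by length and library total. Their mean FPKM was not used. The ratio of counts to FPKM gave gene lengths, scaled on mitochondrial coding genes. Without molecular identifiers, Poisson intervals cover counting error only.

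Receptor genes were found by symbol or description. The log2(FPKM + 1) difference from the library's receptor median was fitted for all genes in limma 3.58.1, with treat at a threshold of 2 and Benjamini-Hochberg adjustment over all genes; a pseudocount of 1 understates differences of low genes. edgeR 4.0.16 and DESeq2 1.42.0 on the counts, with an offset for length and receptor level, were alternatives; edgeR's quasi-likelihood statistic was formed at the threshold. The limma and edgeR fits were also run on simulated data with genes raised well past the threshold, which does not test calls near it. Members, lists and tests were chosen with earlier results of these data known. The coding median without a threshold, length bands, pairs and motifs were added after seeing the data. The rule named all members, the called genes or highest 2 of each list, and the 3 genes nearest to the highest member; Ncapg, outside it, was chosen after its value was seen, and 1 marker gene that it names is not reported here.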

Additional observations from a re-analysis of the deposited data

How the results depend on the processing

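Under the rule of a difference over 2, the count of 0 of 10 mRNAs held with pseudocounts of 0.1 and 5, filters on FPKM or counts, other priors, TPM, TMM or DESeq2 scaling, edgeR, DESeq2, coding genes as the level set against, protein-coding receptors only and any 2 libraries. It was 2 with a threshold of 1, 8 with a threshold of 0 and 6 with CPM, a unit without length. The count over all genes, 548, was 832 and 224 with pseudocounts of 0.1 and 5, 2708 and 15911 with thresholds of 1 and 0, 297 against either coding median, 4012 with CPM, 1212 with edgeR, 1344 with DESeq2, and 0 to 777 with 2 libraries (0 without replicate 3). The count above the 95th percentile, 2, was 0 against all coding genes, 1 against coding genes of at least 3000 bases, 6 with CPM and 2 to 4 with 2 libraries. The edgeR and DESeq2 fits give no such count. Of the changed counts above the 95th percentile, only that without replicate 1 has a share of all genes here (11.3%). These counts are thus no result about the 10 mRNAs.

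The median difference of 1.38 was 1.65 and 0.82 with pseudocounts of 0.1 and 5, 1.19 with at least 10 counts per library, 0.69 and 0.68 against the coding medians, 2.85 with CPM, 1.55 with TPM, 1.71 with either count test and 1.3 to 1.43 with 2 libraries. Against the coding medians of all and of long genes, Ccnb1 turned to -0.079 and -0.095, Smc4 to -0.13 and -0.15, Aspm to -0.25 and -0.27 and Smc2 to -0.36 and -0.38, since that level is higher. With no threshold, 2 to 6 mRNAs passed against the coding median and 6 to 7 against the receptor median with 2 libraries, where 42.2% to 45.6% of all genes were above the receptor median; the cause was not tested. No paired analysis was possible because there is 1 group. With 3 libraries the two-sided exact sign-flip test cannot give a p below 0.25.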
